A study of Mus musculus with 8 samples.

Results

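The genes described here encode 9 proteins that goblet cells of the intestine release: *Muc2*, *Tff3*, *Guca2a*, *Zg16*, *Spink4*, *Reg4*, *Clca1*, *Fcgbp* and *Retnlb*. They were chosen by name, and each was found once by its symbol in the deposited normalised table and joined by its Ensembl identifier to the count table, so that 9 of the 53801 genes counted are followed. RNA was sequenced from Lgr5-GFP+ cells sorted from the intestine of 8 adult mice, with 1 library labelled for each mouse, to ask how the loss of the histone methyltransferase Mll1 changes gene expression in intestinal stem cells with an activated Wnt pathway. All mice carried the Lgr5-EGFP-IRES-CreERT2 allele, in which the recombinase is made from the Lgr5 locus, and a β-catenin allele that loses exon 3 on recombination (β-cat GOF, a gain of function). In 4 mice both *Mll1* alleles were floxed (labelled β-cat GOF; Mll1-/-, called hom in the figures) and in 4 mice 1 allele was floxed (β-cat GOF; Mll1+/-, called het, the controls). Tamoxifen was given at 4 to 6 weeks of age at 50 mg/kg on 3 days, and the cells were taken 10 days after induction. The controls therefore also lack 1 *Mll1* allele in recombined cells, no library with wild-type β-catenin was compared, and the sex of the mice is not labelled.

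Goblet cells are secretory cells of the intestinal epithelium. They arise from crypt stem cells through progenitors that turn on the transcription factor Atoh1 and then Spdef, and they store gel-forming mucin in granules that are released onto the epithelial surface. The mucus layer that forms keeps bacteria away from the cells, and small peptides released with the mucin act on repair, fluid secretion and defence. Sorted Lgr5-GFP+ cells are stem cells and their near progeny, so that RNA of these products is not what defines the cells.

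Promoter sequences were given by RefSeq (GRCm38.p6) for 4 of the 9 genes, and the 250 bases before the transcription start of each are shown because they include the pair of genes whose libraries separated the genotypes, *Muc2* and *Guca2a*, beside a pair whose libraries overlapped, *Reg4* and *Fcgbp*. Capitals mark the letters of the motifs searched, on either strand: the E-boxes CAGCTG and CAGATG, the Foxa core GTAAACA, the Gata core GATAAG, the Tcf/Lef core CTTTGAT and the Spdef core CCGGAT. The stretches lie on the plus strand at chr7:141690090-141690339 for *Muc2*, chr4:119637482-119637731 for *Guca2a*, chr3:98221906-98222155 for *Reg4* and chr7:28070986-28071235 for *Fcgbp*.
Muc2: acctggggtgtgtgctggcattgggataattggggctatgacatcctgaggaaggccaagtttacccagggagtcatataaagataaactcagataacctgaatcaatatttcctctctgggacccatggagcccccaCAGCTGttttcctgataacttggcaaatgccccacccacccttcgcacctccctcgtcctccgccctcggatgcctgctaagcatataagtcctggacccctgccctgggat
Guca2a: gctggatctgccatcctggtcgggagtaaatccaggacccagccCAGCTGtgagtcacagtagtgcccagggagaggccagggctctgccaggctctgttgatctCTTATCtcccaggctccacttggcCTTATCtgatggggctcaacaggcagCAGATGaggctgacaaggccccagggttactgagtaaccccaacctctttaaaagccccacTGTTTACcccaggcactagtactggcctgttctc
Reg4: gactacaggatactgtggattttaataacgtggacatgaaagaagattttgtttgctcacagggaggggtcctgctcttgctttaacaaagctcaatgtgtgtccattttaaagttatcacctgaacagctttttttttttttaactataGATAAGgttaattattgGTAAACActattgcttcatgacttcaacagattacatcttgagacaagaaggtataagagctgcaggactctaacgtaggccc
Fcgbp: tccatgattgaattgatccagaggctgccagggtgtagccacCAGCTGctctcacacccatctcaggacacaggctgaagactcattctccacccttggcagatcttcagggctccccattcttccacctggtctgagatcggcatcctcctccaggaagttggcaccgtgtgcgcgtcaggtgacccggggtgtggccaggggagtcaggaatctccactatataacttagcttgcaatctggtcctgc
The last bases of the *Guca2a* stretch lie inside the gene as the deposited table places it, since that gene starts at 119637704 there.

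The E-box CAGCTG stood in the *Muc2*, *Guca2a* and *Fcgbp* stretches and in 13.1% of the 32536 promoter stretches of the same length. The *Guca2a* stretch also held the E-box CAGATG, which 14.4% of all stretches held. It held the reverse complement of the Gata core at 2 places, from -145 to -140 and from -121 to -116 relative to the start, and the reverse complement of the Foxa core from -34 to -28. The *Reg4* stretch held the Gata core from -100 to -95 and the Foxa core from -83 to -77. Of all stretches, 6.4% held the Gata core and 3.2% the Foxa core. The letters of the Tcf/Lef core (3.2% of all stretches) and of the Spdef core (5% of all stretches) were not in these 4 windows. No motif was shared by *Muc2* and *Guca2a* alone, and a match of letters is a description of the sequence, not a binding site.

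Before the values of the genes are given, the state of the libraries has to be described. They held 14468751 to 16847793 counts on genes, and a floor of 3 counts corresponded to 0.162 to 0.241 CPM (counts of a gene relative to the total of its library, scaled with the TMM factors of edgeR). *Kmt2a*, which encodes Mll1, was not lower in the libraries labelled Mll1-/-: it was at 53.5 to 78.5 CPM there and at 48.9 to 64.9 CPM in the controls (log2 fold change 0.24, adjusted p = 0.71, edgeR). Counts over the whole gene include reads outside the deleted part, so that this is no measure of the deletion, and the genotypes are used as labelled. *Ctnnb1*, which encodes β-catenin, was at 154 to 196 CPM and at 147 to 188 CPM (adjusted p = 0.86, edgeR). *Lgr5* was at 215 CPM or more and *Epcam* at 1255 CPM or more in every library, while *Ptprc*, which encodes the leukocyte antigen CD45, was at 0.957 CPM or less. 1 library of the Mll1-/- group, J_7135, stood apart. Its best Spearman correlation with another library was 0.909 where the other libraries reached 0.947 or more, and it held both Xist (208 CPM) and Y-linked transcripts (165 CPM), of which every other library held mainly one. Whether it holds cells of a single mouse, as labelled, cannot be read from the counts. The part of this in the results was not tested beyond leaving the library out. Of the 9 genes, J_7135 was the highest of all 8 libraries for 3 and the lowest for 2. The library numbers in the count table fall into 2 sets of consecutive numbers, each with 2 libraries of each genotype, and no source used here says what a set stands for: J_7075, J_7079, J_7096 and J_7100 in the first and J_7134, J_7135, J_7136 and J_7139 in the second. In the first set both Mll1-/- libraries held Y-linked transcripts and both controls held Xist, so that genotype and these transcripts cannot be told apart in its differences.

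All 9 genes passed the filter on low counts. 7 had a higher and 2 a lower fitted level in the libraries labelled Mll1-/-, with a median log2 fold change of 0.34 beside 0.0076 over the 16445 genes tested. None passed an adjusted p of 0.1 in edgeR's quasi-likelihood test (Benjamini-Hochberg over all genes tested), a threshold that 14 genes, 0.0851% of those tested, passed. At an unadjusted p under 0.05 in the same test there were 4 of the 9, *Muc2*, *Guca2a* and *Tff3* on the higher side and *Zg16* on the lower, beside 9.15% of all genes tested. For 2 of the 9, *Muc2* and *Guca2a*, the levels of the genotypes were without overlap, beside 6.28% of all genes tested. With DESeq2, which gave adjusted p-values for all 9, *Muc2*, *Guca2a* and *Tff3* passed an adjusted p of 0.1, beside 2.74% of the genes, and the same 3 passed when DESeq2 was run on every gene with a count, beside 2.45%. In simulated data with known changes, DESeq2 made false calls at a share several times its threshold, while that of edgeR was close to it. The simulated counts were drawn with the spread that edgeR itself had estimated, so that they cannot rank the tests on the real data. The call of the 3 genes depended on the test, and the values below are those of edgeR unless DESeq2 is named.

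**Figure D1:**
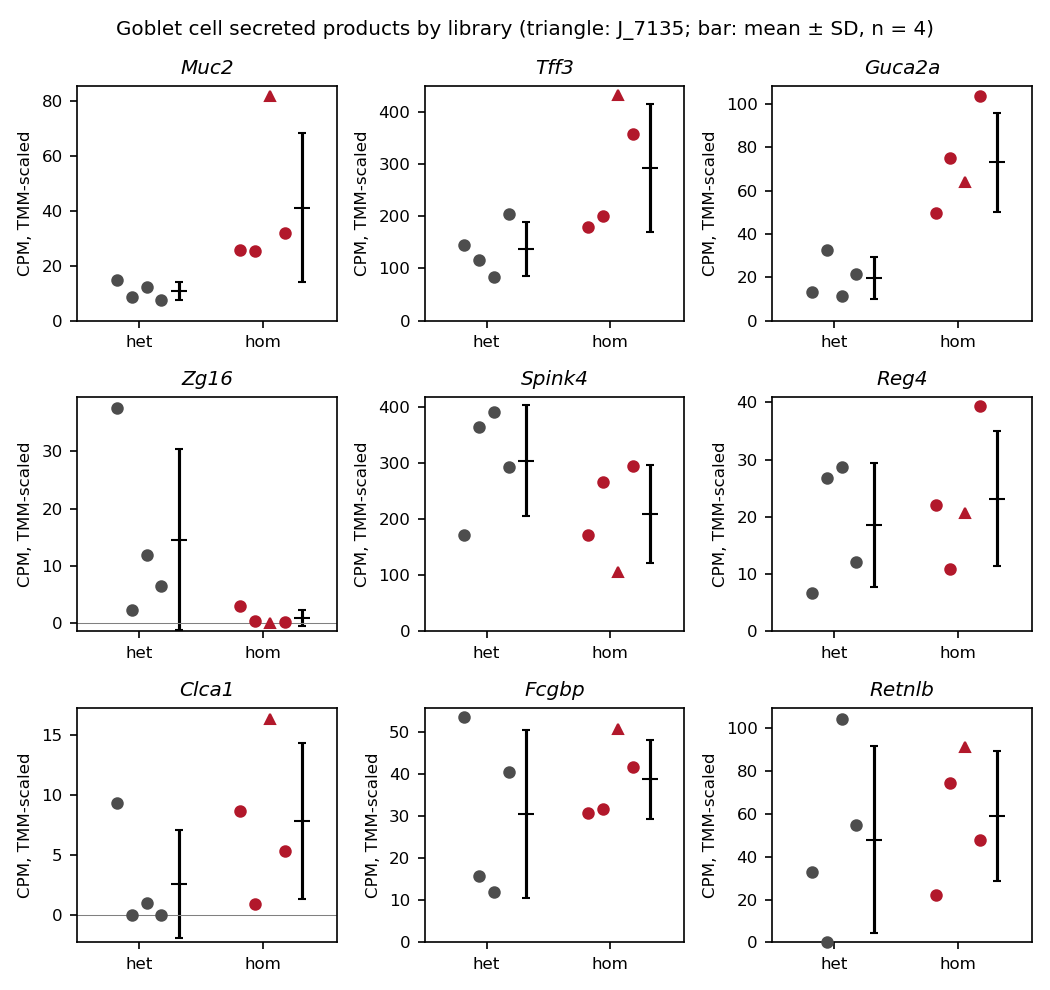
Level of each of the 9 genes (vertical axes, CPM scaled with TMM factors) in the 4 control libraries (het) and the 4 libraries labelled Mll1-/- (hom), with 1 point for each library, J_7135 as a triangle, and the mean ± SD beside the points. The points of the genotypes are separate for *Muc2* and *Guca2a*, and *Zg16* is at 2.95 CPM or less in every hom library.

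The gel-forming mucin comes first. *Muc2* (ENSMUSG00000025515, chr7:141690340-141754693, plus strand) encodes the mucin that builds the intestinal mucus gel. In the libraries labelled Mll1-/- it was at 81.8 (J_7135), 31.8 (J_7136), 25.9 (J_7075) and 25.4 CPM (J_7096). In the controls it was at 14.7 (J_7079), 12.2 (J_7134), 8.51 (J_7100) and 7.62 CPM (J_7139). Each Mll1-/- library was above each control, and J_7135 was far above the other 3 of its group. The log2 fold change was 1.94 (standard error 0.43, 95% interval 0.98 to 2.90, adjusted p = 0.20, edgeR), and DESeq2 gave an adjusted p of 0.00057. Without J_7135 the log2 fold change was 1.36 (adjusted p = 0.12, edgeR). The difference of the mean log2 CPM was 1.19 in the first set of libraries and 2.39 in the second.

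*Fcgbp* (ENSMUSG00000047730, chr7:28071236-28120862, plus strand) encodes a large protein of the mucus that binds to the Muc2 gel. It was at 50.5 (J_7135), 41.7 (J_7136), 31.7 (J_7096) and 30.7 CPM (J_7075). The controls were at 53.4 (J_7079), 40.4 (J_7139), 15.7 (J_7100) and 12.03 CPM (J_7134). The controls spread more widely than the Mll1-/- libraries and enclosed them from both sides. The fitted log2 fold change was 0.34 (standard error 0.44, 95% interval -0.66 to 1.34, adjusted p = 0.86, edgeR), less than the spread between libraries. It was 0.079 without J_7134 and 0.76 without J_7079. Of the 10521 words of 31 bases in its annotated transcripts, 12.3% also occur in transcripts of another gene, among them 9530053A07Rik, so that its count is uncertain to that extent. None of the words of the other 8 genes were shared, and no exon of the 9 genes overlaps an exon of another gene.

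*Clca1* (ENSMUSG00000028255, chr3:145003817-145032776, minus strand) encodes a secreted metalloprotease that acts on the Muc2 gel. The Mll1-/- libraries held 16.3 (J_7135), 8.67 (J_7075), 5.39 (J_7136) and 0.985 CPM (J_7096). Among the controls, J_7079 held 9.33 CPM and J_7134 1.04 CPM, while J_7100 and J_7139 held 1 count each. J_7079 and J_7134 were thus within the range of the Mll1-/- libraries, and the other 2 controls were below it. The fitted log2 fold change was 1.56 (standard error 1.29, 95% interval -1.34 to 4.47, adjusted p = 0.76, edgeR). Without J_7079 it was 4.35 and without J_7135 0.92, and neither passed the threshold.

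*Zg16* (ENSMUSG00000049350, chr7:127050156-127087328, minus strand) encodes a lectin of the mucus that binds the cell wall of Gram-positive bacteria. The libraries labelled Mll1-/- held 50 counts (2.95 CPM) in J_7075, 6 counts (0.348 CPM) in J_7096, 0 counts in J_7135 and 4 counts (0.263 CPM) in J_7136. The controls were at 37.5 (J_7079), 11.9 (J_7134), 6.52 (J_7139) and 2.39 CPM (J_7100). J_7075 was above the lowest control, and the other 3 Mll1-/- libraries were below all controls. The log2 fold change was -4.03 (standard error 1.23, 95% interval -6.78 to -1.27, adjusted p = 0.39, edgeR). With counts this low its size depends on the model: it was -2.95 without J_7079, -6.15 without J_7075 and -0.44 in DESeq2 with a prior that shrinks uncertain changes. In the 2 sets of libraries the mean log2 CPM differed by -3.01 and -5.34. *Zg16* and *Muc2*, both products of the same cells, thus had fitted differences of opposite sign.

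The trefoil and hormone peptides follow. *Guca2a* (ENSMUSG00000023247, chr4:119637704-119639471, plus strand) encodes guanylin, which activates the guanylate cyclase receptor of the epithelium and so regulates salt and water secretion. The Mll1-/- libraries held 104 (J_7136), 74.9 (J_7096), 63.8 (J_7135) and 49.7 CPM (J_7075). The controls held 32.4 (J_7100), 21.5 (J_7139), 13.3 (J_7079) and 11.6 CPM (J_7134). All Mll1-/- libraries lay above all controls, and J_7135 was in the middle of its group. The log2 fold change was 1.89 (standard error 0.36, 95% interval 1.09 to 2.70, adjusted p = 0.17, edgeR), and DESeq2 gave an adjusted p of 2.3e-05. This was the lowest adjusted p of the 9 genes in edgeR. Leaving out any 1 library kept the value between 1.68 and 2.24, and it was 1.55 in the first set of libraries and 2.36 in the second on the scale of mean log2 CPM.

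*Tff3* (ENSMUSG00000024029, chr17:31125306-31129646, minus strand) encodes the intestinal trefoil factor, a peptide that promotes repair of the epithelium. It was at 432 (J_7135), 357 (J_7136), 201 (J_7096) and 179 CPM (J_7075). The controls were at 204 (J_7139), 145 (J_7079), 117 (J_7100) and 82.9 CPM (J_7134). Only J_7139 among the controls reached the lower Mll1-/- libraries. The log2 fold change was 1.09 (standard error 0.34, 95% interval 0.32 to 1.86, adjusted p = 0.41, edgeR), with 0.045 as the adjusted p of DESeq2. It was 0.84 without J_7135, and the sets of libraries differed in size, with 0.55 in the first and 1.59 in the second.

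The last group holds peptides with roles in defence and growth. *Spink4* (ENSMUSG00000028415, chr4:40920052-40931395, plus strand) encodes a Kazal-type protein of the protease inhibitor family. It was at 295 (J_7136), 267 (J_7096), 172 (J_7075) and 106 CPM (J_7135). The controls were at 391 (J_7134), 363 (J_7100), 293 (J_7139) and 171 CPM (J_7079). J_7135, the highest library for *Muc2* and *Tff3*, was the lowest for *Spink4*. On the log2 scale the difference was -0.54 (standard error 0.34, 95% interval -1.30 to 0.23, adjusted p = 0.68, edgeR), and it was -0.32 without J_7135.

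*Reg4* (ENSMUSG00000027876, chr3:98222156-98236748, plus strand) encodes a secreted lectin of the regenerating family that is found in goblet-like and enteroendocrine cells. The Mll1-/- libraries held 39.3 (J_7136), 22.1 (J_7075), 20.6 (J_7135) and 10.8 CPM (J_7096). The controls held 28.8 (J_7134), 26.8 (J_7100), 12.2 (J_7139) and 6.70 CPM (J_7079). High and low libraries were mixed between the genotypes. A log2 fold change of 0.32 was fitted (standard error 0.50, 95% interval -0.82 to 1.45, adjusted p = 0.89, edgeR), and its sign turned when J_7136 was left out (-0.059).

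*Retnlb* (ENSMUSG00000022650, chr16:48816856-48818891, plus strand) encodes a resistin-like protein that goblet cells release in response to bacteria and parasites. The Mll1-/- libraries held 91.5 (J_7135), 74.4 (J_7096), 47.9 (J_7136) and 22.4 CPM (J_7075). Among the controls, J_7079 held 32.8 CPM, J_7134 104 CPM and J_7139 54.9 CPM, while J_7100 held 3 counts. The ranges of the genotypes overlapped with and without that library. The genotypes differed by a log2 fold change of 0.30 (standard error 0.98, 95% interval -1.91 to 2.51, adjusted p = 0.96, edgeR), and it was -0.12 without J_7100. Its size also depended on the test, with 2.12 in limma-voom with quality weights (adjusted p = 0.68, limma-voom). The difference of the mean log2 CPM was 3.62 in the first set, which holds J_7100, and -0.19 in the second.

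**Figure D2:**
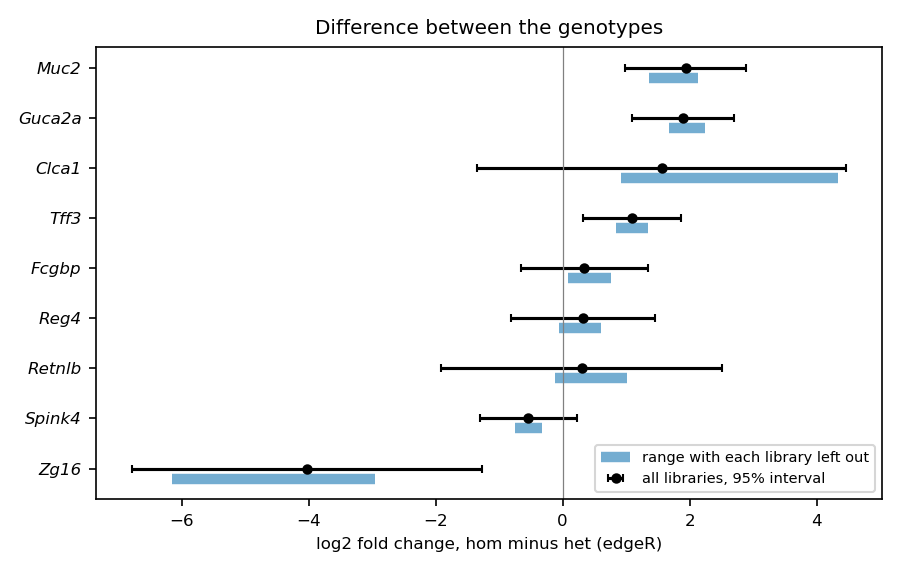
Log2 fold change (horizontal axis, Mll1-/- minus controls, edgeR) of each of the 9 genes with its 95% interval over all 8 libraries, and below it the range of the value over the fits that leave out 1 library each. The intervals of *Muc2*, *Guca2a*, *Tff3* and *Zg16* lie to one side of 0, without adjustment for the genes tested, and the ranges of *Reg4* and *Retnlb* cross 0.

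Levels of different genes were compared per kilobase of exon. *Tff3* and *Spink4* led in both genotypes. In the Mll1-/- libraries *Tff3* was at 593 ± 248 CPM per kilobase and *Spink4* at 440 ± 182 (SD, n = 4), and they did not differ beyond their spread, since *Tff3* was above *Spink4* in 3 of 4 libraries. In the controls *Spink4* was at 638 ± 206 and *Tff3* at 278 ± 104 CPM per kilobase (SD, n = 4), with *Spink4* higher in 4 of 4 libraries although the ranges overlapped. *Spink4* stood clear of the next gene, *Guca2a* with 123 ± 38.5 CPM per kilobase, in the Mll1-/- libraries, and in the controls *Tff3* stood clear of the next gene, *Retnlb* with 69.1 ± 62.9 CPM per kilobase. *Guca2a* was at 33.1 ± 16.0 in the controls, and *Retnlb* at 84.9 ± 43.6 CPM per kilobase in the Mll1-/- libraries. All further neighbours in the order overlapped in range. *Reg4* followed in both, with 22.7 ± 11.6 and 18.2 ± 10.6 CPM per kilobase. *Muc2* was at 5.79 ± 3.82 in the Mll1-/- libraries and at 1.51 ± 0.46 CPM per kilobase in the controls, so that the mucin, the best-known product of these cells, was per kilobase among the lower of the 9 in both. Its exons span 7127 bases, and whether reads cover long transcripts evenly was not tested. *Fcgbp* was at 3.68 ± 0.89 and 2.90 ± 1.89 CPM per kilobase and *Clca1* at 2.08 ± 1.72 and 0.696 ± 1.19. *Zg16* moved from the sixth place in the controls (11.6 ± 12.6 CPM per kilobase) to the last in the Mll1-/- libraries (0.708 ± 1.099). Per kilobase, *Spink4* held 46.8 to 70.3% of the sum over the 9 genes in the controls and 16.1 to 45.9% in the Mll1-/- libraries, without overlap, and *Guca2a* held 1.62 to 5.03% and 7.80 to 10.7%, also without overlap. The share of *Muc2* was 0.0918 to 0.268% and 0.273 to 0.833%, again without overlap but with ranges that nearly touched. The shares of the other genes overlapped. A share of this sum has no counterpart over all genes, so that no background percent can stand beside it. A share moves with the other genes in the sum, and the level of *Spink4* itself overlapped between the genotypes. The 9 genes together held 483 to 656 CPM in the controls and 513 to 922 CPM in the Mll1-/- libraries. Fewer cells of a type and less RNA per cell cannot be told apart in these libraries.

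**Figure D3:**
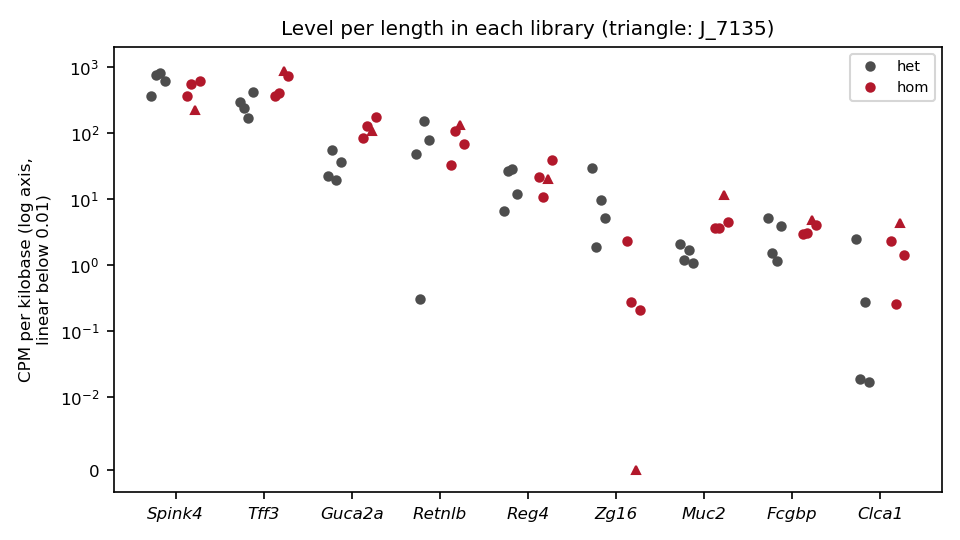
Level per length (vertical axis, CPM per kilobase of exon on a log axis that is linear below 0.01) of the 9 genes in each library, with controls (het) to the left and Mll1-/- libraries (hom) to the right of each gene. *Spink4* and *Tff3* have the highest means in both genotypes, *Zg16* is at 0 in J_7135, and *Retnlb* is at 3 counts in 1 control.

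The levels of the 9 genes did not run in parallel across the 8 libraries. As a description over libraries that share the genotype difference, the Pearson correlation of log2 CPM with *Muc2* was 0.80 for *Clca1*, 0.76 for *Tff3* and 0.67 for *Guca2a*, between 0.18 and 0.49 for *Reg4*, *Retnlb* and *Fcgbp*, and negative for *Spink4* (-0.73) and *Zg16* (-0.76). J_7135 was the highest library for *Muc2*, *Clca1* and *Tff3* and the lowest for *Spink4* and *Zg16*. Its part in these correlations was not tested. The Spearman correlation was 0.79 for *Clca1*, 0.69 for *Guca2a*, 0.595 for *Tff3*, -0.55 for *Spink4* and -0.67 for *Zg16*. It was between 0.14 and 0.43 for *Reg4*, *Retnlb* and *Fcgbp*. Among 10855 genes with a mean of at least 5 CPM, the 5 whose pattern over the 8 libraries was most like that of *Muc2* were *Kcnn4* (r = 0.992), *Vasp* (0.983), *Slc25a25* (0.979), *2700049A03Rik* (0.975) and *Ift27* (0.973). These are the highest of 10855 values over only 8 libraries.

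The regulators of the lineage were followed in a list of 12 transcription factors, all tested. The list also holds *Hes1*, which the authors describe as a repressor of *Atoh1* and which is counted among the higher genes (log2 fold change 0.25). Of the 12, 8 had a higher and 4 a lower fitted level in the Mll1-/- libraries, with a median log2 fold change of 0.37, and 1 passed the adjusted threshold. This was *Foxa1*, a forkhead factor of the secretory lineage, which fell from 32.2 to 43.7 CPM in the controls to 6.82 to 13.4 CPM (log2 fold change -1.99, standard error 0.25, adjusted p = 0.092, edgeR). Its call was lost without J_7079, J_7096, J_7100, J_7134, J_7136 or J_7139 (adjusted p from 0.19 to 0.29, edgeR), and it held without J_7135 (adjusted p = 0.033, edgeR) or J_7075 (adjusted p = 0.080, edgeR), while the log2 fold change stayed between -2.24 and -1.87. With a term for the set of libraries the adjusted p was 0.11 (edgeR), and with one for Xist above the Y-linked transcripts it was 0.22 (edgeR). *Foxa1* was the only gene of any list called by edgeR on all libraries. DESeq2 called 4 of the 12 regulators, beside 2.74% of the genes. *Spdef*, which drives goblet cell maturation, had the largest log2 fold change of the list, 2.41 (adjusted p = 0.20, edgeR), with 4.11 to 15.1 CPM against 0.646 to 1.91 CPM in the controls. *Atoh1*, the factor that commits progenitors to the secretory fate, was at 6.02 to 39.3 CPM against 0.722 to 5.92 CPM (2.24, adjusted p = 0.43, edgeR). J_7135 was the highest library for both. At an unadjusted p under 0.05 there were 6 of the 12 in the same test, beside 9.15% of all genes tested, with *Klf4*, *Creb3l1* and *Foxa3* added to these 3. With a library left out, the median of the list went down to 0.21 (without J_7075).

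**Figure D4:**
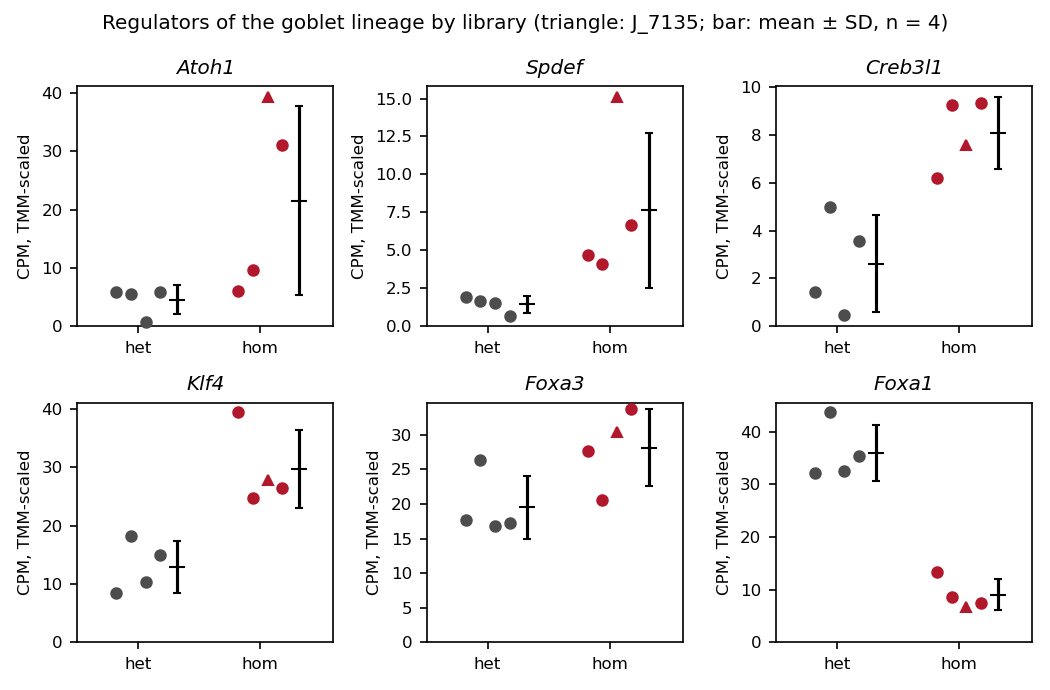
Levels (vertical axes, CPM scaled with TMM factors) of the 6 lineage regulators with an unadjusted p under 0.05, a choice made after their values were seen, with 1 point for each library, J_7135 as a triangle, and the mean ± SD beside the points. *Foxa1* is lower in all 4 hom libraries, and the other 5 have a higher mean there.

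Of 30 genes for the folding, glycosylation and release of mucin, 24 were tested and none passed the adjusted threshold, with 16 higher, 8 lower and a median log2 fold change of 0.20, which was 0.12 without J_7139. At an unadjusted p under 0.05 there were 4 (edgeR), beside 9.15% of all genes tested, and DESeq2 called 2, beside 2.74% of the genes. The extremes were *Ern2*, which encodes the stress sensor of the endoplasmic reticulum in mucin-producing cells, with 1.83 (5.02 to 10.8 CPM against 1.08 to 3.81, adjusted p = 0.25, edgeR), and the sialyltransferase gene *St3gal6* with -0.83 (adjusted p = 0.48, edgeR). The 5 membrane-bound mucins tested had a median of 0.049, from *Muc1* at -1.67 to *Muc3a* at 0.31, with 0 called by edgeR or DESeq2 and 0 at an unadjusted p under 0.05 (edgeR). Relatives of the 9 genes in the same families were followed as well: 12 of 23 were tested, 9 were lower, 3 were higher and none passed, with a median of -0.59. At an unadjusted p under 0.05 there were 6, all lower (edgeR), and DESeq2 called 3, beside the same 9.15% and 2.74%. The largest was *Guca2b*, which encodes uroguanylin, with 0.58, and the smallest *Clca4b* with -1.51 (27.2 to 72.2 CPM against 84.5 to 135, adjusted p = 0.20, edgeR). *Guca2a* and its neighbour in function, *Guca2b*, thus differed in spread: *Guca2b* was at 3.41 to 77.5 CPM in the Mll1-/- libraries and at 11.9 to 26.6 CPM in the controls. The gastric trefoil gene *Tff1* was at 0 in all libraries and the respiratory mucins *Muc5ac* and *Muc5b* were at 0.241 CPM or less.

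Markers of other cells were followed in the same way, and their part in the values above was not tested. With edgeR on all libraries no gene of these lists passed the adjusted threshold. At an unadjusted p under 0.05 in that test there were 12 of 20 Paneth cell markers (11 lower), 7 of 16 enterocyte markers (6 lower), 2 of 10 enteroendocrine, 0 of 3 tuft cell, 5 of 18 stem cell, 2 of 5 epithelial and 1 of 3 immune and stromal markers. The share over all genes tested was 9.15%. DESeq2 called 8, 4, 1, 0, 3, 2 and 1 of them in the same order, beside 2.74% of the genes. Without J_7135, edgeR called 1 gene each among the enterocyte, enteroendocrine, immune and stromal and mucin processing genes, beside 45 of 17150 genes tested. Without J_7075 it called 1 of the relatives of the 9 genes, beside 2 of 17024. The 20 Paneth cell markers had a median log2 fold change of -1.12, from *Defa3* at -1.88 to *Mmp7* at 1.04, and their summed level was 1961 to 5695 CPM in the Mll1-/- libraries and 3712 to 6412 CPM in the controls. Of this sum *Pla2g2a* alone held 113 to 2513 and 106 to 1181 CPM. Without overlap between the genotypes, 5 of the list were lower and 1 was higher, beside 6.28% of all genes tested. *Guca2b* is counted in this list and among the relatives of the 9 genes. Of 20 enterocyte markers 16 were tested, with a median of -1.17, from *Fabp1* at -2.41 to *Vil1* at 0.42, and sums of 793 to 1066 and 978 to 1129 CPM. Of 20 enteroendocrine markers 10 were tested, with a median of -1.42, from *Chga* at -5.70, a value that rests on libraries at or near 0 counts, to *Isl1* at 0.88 (median -0.76 without J_7079), and sums of 10.2 to 16.9 and 18.5 to 88.0 CPM. The 3 tuft cell markers tested, of 15 listed, had a median of 0.36, from *Il17rb* at -0.04 to *Avil* at 0.82 (median 0.19 without J_7079 and 0.94 without J_7139), with sums of 6.11 to 12.9 and 3.85 to 7.10 CPM. With a library left out the filter on low counts was applied anew, so that the genes behind these medians could differ. Of 18 stem cell markers 8 were higher and 10 lower (median -0.03), from *Slc12a2* at -0.87 to *Nkd1* at 1.31, and their summed level, 11940 to 18620 CPM against 24240 to 28810 CPM, was carried mainly by *Olfm4* with 8080 to 14430 against 19280 to 22950 CPM. The 5 epithelial markers had a median of 0.28, from *Cdh1* at 0.03 to *Krt18* at 0.72, with sums of 3256 to 3953 and 2599 to 2851 CPM. Of 15 immune and stromal markers 3 were tested, from *Lyz2* at -0.90 to *Vim* at 4.49 (44.3 to 116 CPM against 0.194 to 4.89, adjusted p = 0.11, edgeR), and the sums were 51.9 to 125 and 10.3 to 18.7 CPM. The sum in the Mll1-/- libraries was carried mainly by *Vim*. *Ptprc*, *Cd3e*, *Col1a1*, *Col3a1* and *Pdgfra* were at 0.957 CPM or less in every library. Other genes of this list were higher. *Pecam1* was at 3.953 to 5.911 CPM in the Mll1-/- libraries and at 4.148 to 5.855 CPM in the controls (log2 fold change -0.02). *Lyz2* reached 2.78 CPM in an Mll1-/- library and 5.935 CPM in a control. *Itgam* reached 3.24 CPM and *Col1a2* 1.475 CPM in an Mll1-/- library.

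**Figure D5:**
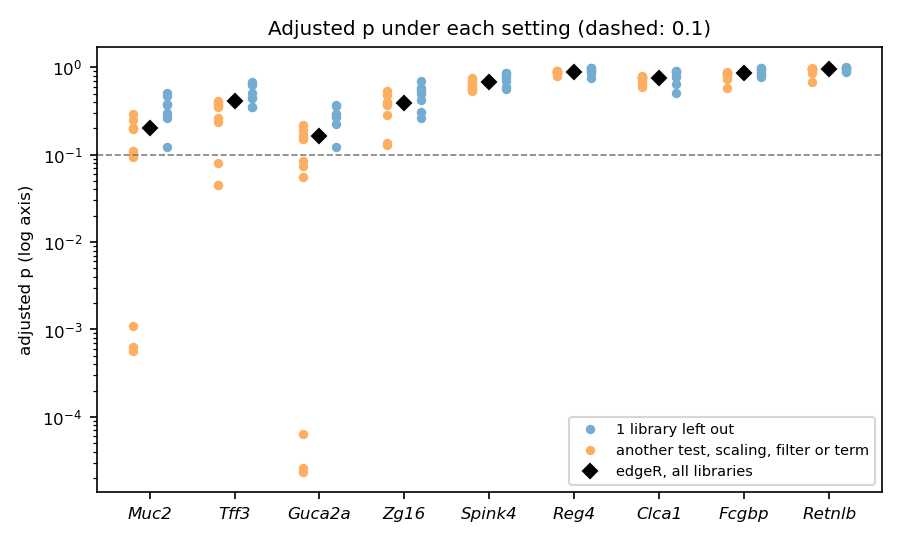
Adjusted p (vertical axis, log scale) of each of the 9 genes in the edgeR test on all 8 libraries (diamonds), with 1 library left out (right) and under another test, scaling, filter or added term (left). Points below the dashed line at 0.1 occur for *Muc2*, *Guca2a* and *Tff3*, and none of them comes from leaving out a library.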

How the data were processed

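The authors sorted Lgr5-GFP+ cells, made Smart-seq2 libraries without molecular identifiers, aligned reads to mm10 with GSNAP and deposited raw counts per gene of Ensembl release 92 (featureCounts 1.6.3, mapping quality of at least 1, strand not used). The authors also deposited a signal table of 25485 genes, the counts divided by DESeq2 1.22.2 size factors, which was used here for names and positions. Further deposited columns hold gene annotation and other values such as gene length.

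The genes and lists were chosen with earlier results of these data known. Genes with too few counts were left out by filterByExpr (minimum count 10, minimum total 15), and the rest were tested in edgeR 4.0.16 (R 4.3.3) with TMM factors and genotype as the only term, two-sided, with Benjamini-Hochberg adjustment and a threshold of 0.1. Intervals are at 95%, and with no molecular identifiers floors of 3 counts cover counting error only. Per the labels each mouse gave 1 library. Log2 CPM used a prior count of 2. The tests were tested on simulated data: fold changes came back without bias and the false calls of edgeR were near its threshold, while those of DESeq2 were far above it. The counts were drawn with the spread that edgeR had estimated, a setting that cannot rank the tests on the real data. A limit on the share of changed genes that edgeR should recover was missed and was then dropped.

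The named genes were the 9 genes, *Kmt2a*, *Ctnnb1*, the extremes and called genes of each list, the 5 genes most like *Muc2*, *Lgr5*, *Olfm4*, *Epcam*, *Ptprc*, *Atoh1* and *Spdef*; others were named after their values were seen. Alternatives were other scalings, filters and tests (DESeq2 1.42.0, limma 3.58.1), a term for the set of consecutive library numbers and each library left out. A term for Xist above the Y-linked transcripts and DESeq2 on every gene with a count were added after seeing the data; the latter was the first DESeq2 fit made, before it was set to the filtered genes.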

Additional observations from a re-analysis of the deposited data

Results flagged for a closer look

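In 3 of 18 groups of 4 libraries, a group for each of the 9 genes and each genotype, 1 library lay far from the others by Dixon's test at the 95% level. For normally distributed values chance gives this in about 1 group in 20. The test was run on CPM without a log, all 3 libraries were on the high side, and the groups share the same 8 libraries. The count of 3 in 18 can therefore not be set against that rate. *Muc2* was at 81.8 CPM in J_7135, and the other libraries labelled Mll1-/- were at 25.4 to 31.8 CPM. *Zg16* was at 2.95 CPM in J_7075, and the other libraries labelled Mll1-/- were at 0 to 0.348 CPM. *Clca1* was at 9.33 CPM in J_7079, and the other controls were at 0.0646 to 1.04 CPM. The causes were not tested.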

How the results depend on the processing

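The count of the 9 genes past an adjusted p of 0.1, which was 0 in edgeR, was 3 in DESeq2 without a prior, 3 with a prior and 3 on every gene with a count (*Muc2*, *Guca2a* and *Tff3* each time), 2 in edgeR with no filter (*Muc2* and *Guca2a*), and 1 in limma-voom with quality weights and 1 with at least 10 counts in every library (*Guca2a* both times). It stayed 0 with the other scalings, the term for the set of library numbers, the term for Xist above the Y-linked transcripts and each library left out. Over all genes, 14 passed in edgeR, 406, 390 and 517 in the DESeq2 fits in the order above, 103 in limma-voom, 47 with no filter, 34 with the stricter filter, 8 with upper quartile scaling, 0 with either term (1642 with the set and 1620 with Xist at an unadjusted p under 0.05, edgeR), and 0 to 45 with a library left out. The cause was not tested.

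The median log2 fold change of the 9 genes (0.34) was 0.20 in DESeq2 with a prior, 0.76 in limma-voom, 0.72 with the stricter filter (which left 6 genes), 0.67 with the set, 0.82 with the Xist term and 0.37 to 0.91 with a library left out. The sign turned for *Reg4* without J_7136 (-0.059, range -0.059 to 0.61 with a library left out) and for *Retnlb* without J_7100 (-0.12, range -0.12 to 1.01). The number of genes without overlap was 2 to 3 with a library left out, as *Zg16* joined without J_7075 or J_7100 and *Tff3* without J_7139, while the share over all genes rose from 6.28% to between 9.07 and 10.9%. The sign of the median also turned in some settings for the membrane-bound mucins, the stem cell markers and the immune and stromal markers, the last from -0.02 to 2.01 without J_7139. The filter on low counts was applied anew with a library left out, so that the genes behind a median could differ. It kept 16445 genes on all libraries and 17100 without J_7139. On all libraries the immune and stromal median was the value of *Pecam1*, the middle of only 3 genes tested. No paired analysis was possible because replicate numbers were given in accession order and pair no mice. The intervals of *Clca1*, *Zg16* and *Retnlb* were the widest of the 9 genes, with standard errors of 1.29, 1.23 and 0.98. Their lowest libraries held 1, 0 and 3 counts and their highest 302, 627 and 1691 counts. The cause of these wide intervals was not tested.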
